A study of Sus scrofa with 34 samples.

Results

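The genes described here are the cytochrome P450 (CYP) genes of families 1 to 4, chosen by name alone as the rows of the pig count tables whose Ensembl symbol is CYP, a family number from 1 to 4, a subfamily letter and a member number. 15 of the 25880 rows fitted, 3 in family 1 (CYP1A1, CYP1A2 and CYP1B1), 8 in family 2 (CYP2A19, CYP2D6, CYP2E1, CYP2F1, CYP2R1, CYP2S1, CYP2U1 and CYP2W1), 4 in family 4 (CYP4B1, CYP4F3, CYP4F22 and CYP4V2) and 0 in family 3. A symbol was known for 14857 of the rows. The symbols CYP2C42, CYP2C49, CYP2J34, CYP3A29, CYP4A21 and CYP4A24 fit the same pattern, but their Ensembl identifiers are no rows of the count tables. They were therefore not analysed here, and the count of 0 in family 3 says nothing about its expression.

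RNA was sequenced from the liver of 24 weaned crossbred piglets on day 28 of feeding, 6 for each of 4 diets, and from the ileum of 10 of the control and PFA animals, 5 a diet. The control group had a basal feed with fresh rapeseed oil, the PFA group the same feed with a phytogenic feed additive (a blend with menthol, carvacrol and methyl salicylate beside the oils of oregano and caraway), the OO group a feed with heated, oxidized rapeseed oil, and the OO + PFA group the oxidized oil together with the additive. The oxidized oil was given to cause oxidative stress, and the comparisons ask what it and the additive do to gene expression. The oxidized oil took the place of a share of the whole basal feed, so both OO feeds also held far more oil and more energy than the control feed, and the amount of oil and its oxidation cannot be told apart. Each diet was fed in 1 pen, so diet and pen cannot be told apart.

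Between 18738055 and 42446834 read pairs per liver library and between 18772230 and 24338165 per ileum library were counted on genes, and levels are given as CPM, counts per 1000000 of these pairs after TMM scaling. The OO + PFA liver of pig 77 was left out of the fits for RNA quality. It had 36.6 read pairs with several alignments per 100 pairs on genes, against 3.02 to 14.7 in the other livers, and the lowest sum of hepatocyte markers, 39580 CPM. That sum, over 9 genes, was 91580 to 212900 CPM in the other livers and 3100 to 7640 CPM in the ileum, where TTR had 0 counts. The 7 enterocyte markers summed to 14780 to 23560 CPM in the ileum and 513.1 to 1185 CPM in the liver.

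P450 enzymes of families 1 to 4 are heme proteins of the endoplasmic reticulum that insert an oxygen atom into drugs, plant compounds, fatty acids and steroids, with electrons handed over by the reductase POR. In the liver many of them are switched on by ligand-sensing factors, family 1 by the aryl hydrocarbon receptor (AhR) with its partner ARNT, and many members of families 2 and 3 by the nuclear receptors CAR (gene NR1I3) and PXR (gene NR1I2). Family 4 enzymes mostly hydroxylate the end of fatty acids and eicosanoids, and the ileal epithelium is another site of P450 expression.

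RefSeq on the build Sscrofa11.1, which the submitters' processing notes also name, held 12 of the 15 genes, 6 matched by symbol and 6 by product name, and CYP2D6, CYP2F1 and CYP4F3 were not matched. CYP1A1 (chr7:58802887-58809155, plus strand) and CYP1A2 (chr7:58779529-58786155, minus strand) lie head to head, 16731 bases apart. CYP2A19 (chr6:49056579-49064111, minus strand) and CYP2S1 (chr6:49221361-49235335, plus strand) share a region of chromosome 6, 157249 bases apart. CYP2E1 is at chr14:141690737-141703078 on the plus strand, and its transcript has 9 exons. The 250 bases before the RefSeq transcript start are shown for CYP2E1, which fell with the oil, and for CYP1A1, the classical AhR target. The stretches are chr14:141690516-141690765, plus strand for CYP2E1 and chr7:58802650-58802899, plus strand for CYP1A1, each written 5′ to 3′ on the strand of its gene. Capitals mark matches on either strand to GCGTG (the core that AhR and ARNT bind), AGGTCA and AGTTCA (nuclear receptor half-sites), CCAAT (the CCAAT box) and TATAAA (the TATA box).
CYP2E1: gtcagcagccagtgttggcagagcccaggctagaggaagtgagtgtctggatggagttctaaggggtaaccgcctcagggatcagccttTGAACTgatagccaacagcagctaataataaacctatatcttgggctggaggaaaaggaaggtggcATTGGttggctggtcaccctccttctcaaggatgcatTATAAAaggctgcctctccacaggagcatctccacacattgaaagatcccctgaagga
CYP1A1: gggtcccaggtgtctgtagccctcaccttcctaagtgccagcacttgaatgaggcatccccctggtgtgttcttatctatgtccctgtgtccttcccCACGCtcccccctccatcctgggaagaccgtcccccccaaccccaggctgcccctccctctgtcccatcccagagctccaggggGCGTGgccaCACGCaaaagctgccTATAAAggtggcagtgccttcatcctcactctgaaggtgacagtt

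The CYP1A1 stretch held GCGTG or its complement CACGC in 3 places and TATAAA 45 to 40 bases before the start. GCGTG was found upstream of 4 of the 12 matched members (CYP1A1, CYP1B1, CYP2S1 and CYP4F22), and in 31.8% of the 250-base stretches before the starts of 20656 RefSeq genes. The CYP2E1 stretch held AGTTCA on the reverse strand (as TGAACT), 161 to 156 bases before the start, a half-site found in 8.36% of all stretches, and TATAAA 58 to 53 bases before it, found in 10.3%. Of the 12 members, AGTTCA was found upstream of 3 and TATAAA upstream of 5. CCAAT was found upstream of 2 (CYP2E1 and CYP2R1) and in 31.6%, and AGGTCA upstream of 2 (CYP2U1 and CYP4F22) and in 12.3%. None of these 5 motifs was found before CYP1A2, CYP2W1, CYP4B1 or CYP4V2. The curated transcript of CYP1A2 starts 1302 bases inside its gene. GTTAAT, a half-site of the factor HNF1, was also searched and found upstream of 2 (CYP2A19 and CYP2S1) and in 6.05% of all stretches. These matches are of letters only and were not tested for binding.

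In the liver 11 of the 15 genes passed the filter on low counts, and CYP2F1, CYP2W1, CYP4B1 and CYP4F22 did not. Together the 15 genes took 0.509% to 0.883% of the read pairs on genes in the 23 livers, and CYP2E1, the ethanol- and fatty acid-oxidizing enzyme of hepatocytes, made up 26.4% to 58.2% of that sum. Per kilobase of RefSeq exon, which was known for 12 genes, the order in the liver was CYP2E1 at 1591 ± 369 CPM per kb, CYP2A19 at 886.8 ± 326.5, CYP1A2 at 118 ± 36.6, CYP1A1 at 52.6 ± 18.6 and CYP2U1 at 13.98 ± 3.10 (SD, n = 23). CYP2E1 (lowest 1072) and CYP2A19 (highest 1676) overlapped between livers, and CYP1A2 (lowest 82.8) stood above CYP1A1 (highest 79.6) by a narrow margin. CYP2D6, with no length, had 1762 ± 754 CPM (SD, n = 23), and is the P450 that in humans oxidizes many basic drugs.

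Across the 4 liver diets, edgeR's F-test called 1 of the 11 tested members, CYP2E1 (edgeR adjusted p = 0.0336), where 3.66% of all 13831 genes were called. That call was lost on leaving out any 1 of 11 of the 23 livers (adjusted p up to 0.0797). In OO against control it was again the 1 member called, lower with the oil, against 2.71% of all genes called and 1.34% called lower. CYP2E1 was at 3063 CPM in the lowest control liver, 3948 at the median and 4378 in the highest. The 6 OO livers lay at 2006, 2501 and 2903 CPM (lowest, median, highest), below every control liver. The fall was 1.54-fold (log2 fold change -0.62, SE 0.14, edgeR adjusted p = 0.0211). In a bulk sample, fewer cells of a type and less RNA per cell cannot be told apart. The PFA livers (2349, 2923 and 3708 CPM) lay between and overlapped both. The 5 OO + PFA livers had 2942, 2282, 2965, 2181 and 2423 CPM, and the difference from PFA was -0.23 (log2, SE 0.15, edgeR adjusted p = 0.361). The interaction, which asks whether the oil effect differed with the additive, was 0.39 (log2, SE 0.21, edgeR adjusted p = 0.403).

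The CYP2E1 call stood near its limit. Without control pig 85 the adjusted p was 0.0507, without the OO pig with 2124 CPM it was 0.0567 and without OO pig 130 it was 0.0598 (edgeR). With all 24 livers it was 0.0785 (log2 fold change -0.62), and with a term for read pairs on no gene 0.101 (log2 fold change -0.67). That share moved with the diet: the OO livers had 9.20 to 12.6 pairs on no gene per 100 on genes and the control livers 12.97 to 23.5, and its part in the result was not tested beyond that term. Of the 9 hepatocyte markers 1 was called, SERPINA1, lower with OO (log2 -1.25, SE 0.27, edgeR adjusted p = 0.0150), beside 1.34% of all genes called lower. SERPINA1 was scarce, with means of 3.09 CPM in the control and 1.29 CPM in the OO livers. Of the same markers, TAT was at 0.61 (log2, SE 0.24, edgeR adjusted p = 0.138) and TF at -0.30 (SE 0.19, edgeR adjusted p = 0.369). In OO + PFA against PFA, TAT was called higher (log2 1.49, SE 0.25, edgeR adjusted p = 0.00165). SERPINA1 was at -0.05 there (SE 0.28, edgeR adjusted p = 0.936). In OO against control all 8 macrophage markers tested lay above 0 (median log2 0.45, beside 0.06 over all genes), with 0 called and 1 at an unadjusted p under 0.05. Of the same 8, 7 lay above 0 in PFA against control (median log2 0.26) and 5 in OO + PFA against PFA (median log2 0.10). Control pigs 80 and 85 had the lowest macrophage sums of the 24 livers (311 and 362 CPM). The part of these marker genes in the result was not tested. The summed hepatocyte markers overlapped between control (91580 to 168000 CPM) and OO livers (104500 to 135800 CPM), as did 9 other pericentral genes of the lobule zone where CYP2E1 is made (1486 to 2028 and 1563 to 2080 CPM).

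Since the oil was given both with and without the additive, the oil effect was also averaged over both, a contrast chosen after the 2 single comparisons had been seen. It called 5 of the 11 members, 2 higher and 3 lower, where it called 11.8% of all genes, 8.95% higher and 2.83% lower. Lower were CYP2E1, CYP2A19 and CYP2U1, and higher were CYP2D6 and CYP1B1. CYP2E1 was 1.34-fold lower (log2 -0.42, SE 0.10, edgeR adjusted p = 0.0139) and CYP2D6 1.68-fold higher (log2 0.75, SE 0.19, edgeR adjusted p = 0.0175). Both stayed called in each of 31 other fits, with edgeR or DESeq2 adjusted p of at most 0.0309 and 0.0398. The median log2 change of the 11 members was -0.03, beside 0.01 over all genes.

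CYP2D6 had a log2 interaction of oil and additive of 0.54 (SE 0.38, edgeR adjusted p = 0.543). The PFA livers had 755.7, 1213 and 1536 CPM (lowest, median, highest), and the 5 OO + PFA livers 2811, 2140, 2606, 2678 and 1728 CPM, with no overlap. The log2 difference was 1.02 (SE 0.28, 2.02-fold), which missed the threshold with edgeR (adjusted p = 0.0628) and passed it with DESeq2 (0.99, adjusted p = 0.0168). Without the additive the groups overlapped, the control livers at 1072, 1603 and 1896 CPM and the OO livers at 1009, 1871 and 3467 CPM. The 2 highest OO livers, at 3467 and 3221 CPM, were also the 2 lowest of the OO livers for CYP2E1 (2124 and 2006 CPM). OO and control differed by 0.48 (log2, SE 0.27, edgeR adjusted p = 0.301). Since read pairs with several alignments were set aside before counting, a gene with near-identical copies, as CYP2D genes have in many mammals, may be undercounted.

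CYP1B1, an extrahepatic family 1 enzyme that acts on estrogens and polycyclic hydrocarbons, was scarce in the liver. Control livers had 0.607, 1.74 and 2.51 CPM (lowest, median, highest) and OO livers 1.29, 2.86 and 3.74 CPM, with an overlap. PFA livers had 0.712, 1.38 and 1.84 CPM, and the OO + PFA livers 2.68, 2.02, 1.498, 2.87 and 2.07 CPM, of which 4 lay above every PFA liver. The log2 differences were 0.70 (SE 0.28, edgeR adjusted p = 0.155) and 0.73 (SE 0.30, edgeR adjusted p = 0.159). Averaged over both, CYP1B1 was 1.64-fold higher (edgeR adjusted p = 0.0294), a call lost without control pig 100, PFA pig 107, OO pig 130, OO + PFA pig 79 or the OO + PFA pig with 2.87 CPM (highest adjusted p 0.0582).

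CYP2A19, the pig relative of the human nicotine oxidase CYP2A6, fell in level with the oil when averaged, 1.49-fold (log2 -0.58, SE 0.19, edgeR adjusted p = 0.0494). The control livers had 993.7, 1845 and 2509 CPM and the OO livers 575.1, 1141 and 1815 CPM (lowest, median, highest), with an overlap. The PFA livers had 1406, 1723 and 2942 CPM and the OO + PFA livers 1074, 1270, 1345, 970.0 and 1780 CPM, again with an overlap. The 2 single log2 differences were -0.57 (SE 0.26, edgeR adjusted p = 0.208) and -0.59 (SE 0.28, edgeR adjusted p = 0.203). That averaged call did not hold under most other settings. It was lost on leaving out any 1 of 17 of the 23 livers (adjusted p up to 0.0913), and without control pigs 80 and 85 (0.134). It was also lost with no filter, with at least 10 counts in every library, with all 24 livers, and with an added term for library name form or for pairs on no gene (edgeR adjusted p 0.0512 to 0.0694). Without control pig 71, PFA pigs 134 or 138, OO pigs 97 or 99, or the OO + PFA pig with 1780 CPM it stood.

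CYP2U1, a fatty acid hydroxylase conserved across vertebrates, was steady in the control livers at 64.97, 70.9 and 80.4 CPM (lowest, median, highest). The OO livers had 33.9, 48.7 and 69.6 CPM, and 1 of them, pig 130, reached into the control range. The log2 difference was -0.48 (SE 0.15), not called by edgeR (adjusted p = 0.0810) and called by DESeq2 (adjusted p = 0.0317) and by edgeR without OO pig 97 (adjusted p = 0.0384). The PFA livers had 53.8, 71.6 and 92.0 CPM and the OO + PFA livers 53.1, 48.6, 61.6, 66.7 and 69.95 CPM, with an overlap. Averaged over the additive the fall was 1.30-fold (log2 -0.38, SE 0.11, edgeR adjusted p = 0.0301). Leaving out control pig 100, PFA pig 67 or 95, OO pig 99, the OO pig with 33.9 CPM, or OO + PFA pig 79 or 98 ended that call (highest adjusted p 0.0604).

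**Figure D1:**
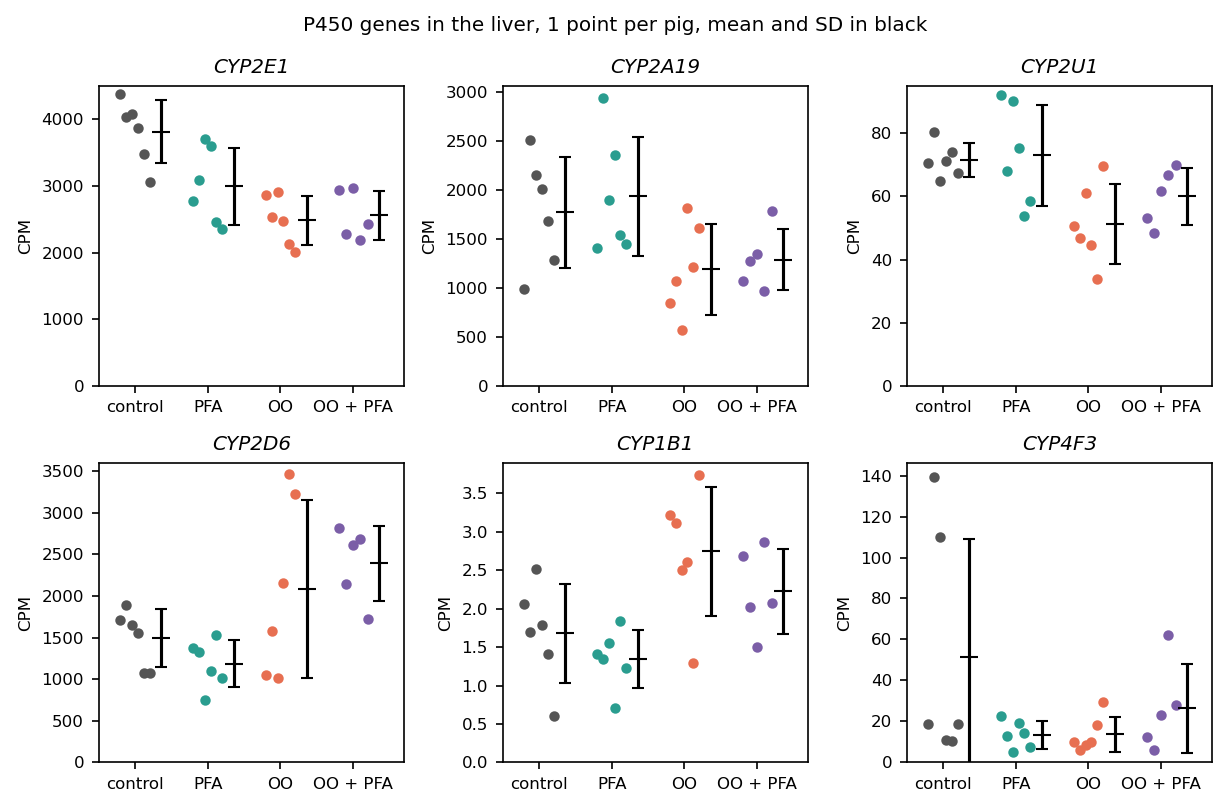
CPM of 6 P450 genes in the liver by diet, 1 point per pig (n = 6, 6, 6 and 5), with the mean and SD in black and the axis cut at 0, which truncates the SD bar of CYP4F3 in the control group. Every OO point of CYP2E1 (at most 2903 CPM) lies below every control point (at least 3063 CPM), and every OO + PFA point of CYP2D6 (at least 1728 CPM) above every PFA point (at most 1536 CPM).

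CYP4F3, which in humans inactivates leukotriene B4 by omega-hydroxylation, showed the widest spread. Control pigs 80 and 85 had 139 and 110 CPM, and the other 4 control livers 18.8, 10.7, 10.7 and 18.6 CPM. The OO livers had 5.96, 10.04 and 29.4 CPM and the PFA livers 4.96, 13.4 and 22.7 CPM (lowest, median, highest). Against all 6 controls the log2 difference of OO was -1.92 (SE 0.65, edgeR adjusted p = 0.0940, DESeq2 adjusted p = 0.0401). Without pigs 80 and 85, a step chosen after the values were seen, it was -0.10 (SE 0.52, edgeR adjusted p = 0.939). Those 2 libraries were not the highest in enterocyte markers (603.6 and 596.1 CPM, 19th and 20th of 24 livers), but held the 2 lowest sums of macrophage (311 and 362 CPM), endothelial (100.8 and 138.7 CPM) and stellate cell markers (611.9 and 597 CPM). Their erythroid sums (589.5 and 476.3 CPM) ranked 2nd and 4th, and their goblet cell sums (0.560 and 0.313 CPM) 2nd and 3rd. Their hepatocyte sums (90550 and 134100 CPM, like these scaled over all 24 livers) ranked 23rd and 10th. They also had the most pairs on no gene of the control livers (23.5 and 18.5 per 100 on genes, against 12.97 to 14.6) and were the 2 controls with the short form of library name. The part of these in the result was not tested. The OO + PFA livers had 12.6, 6.02, 23.03, 62.3 and 28.1 CPM. CYP4F3 also had the smallest p of the members for the interaction of oil and additive (log2 2.88, SE 0.92, edgeR adjusted p = 0.208).

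The other tested members did not pass any liver comparison of the diets. CYP1A1, the AhR-driven hydroxylase of planar hydrocarbons, had 42.7, 143.5 and 228.6 CPM over the 23 livers (lowest, median, highest), and its log2 differences with the oil were -0.01 and -0.04, with SEs of 0.32 and 0.34. CYP1A2, the caffeine-metabolizing hepatic enzyme, had 170.7, 234.0 and 470.9 CPM, with log2 differences of 0.05 (SE 0.21) in OO against control and -0.52 (SE 0.22, edgeR adjusted p = 0.164) in OO + PFA against PFA. CYP2R1, a vitamin D 25-hydroxylase, had 2.40, 4.74 and 8.09 CPM, with log2 differences of 0.33 in both oil comparisons (SE 0.25 and 0.26). CYP2S1, an epithelial and dioxin-inducible enzyme, had 1.39, 2.10 and 7.05 CPM, and CYP4V2, a fatty acid omega-hydroxylase, 57.8, 120.2 and 167.7 CPM. Their log2 differences with the oil lay between -0.32 and 0.43, none called (edgeR).

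**Figure D2:**
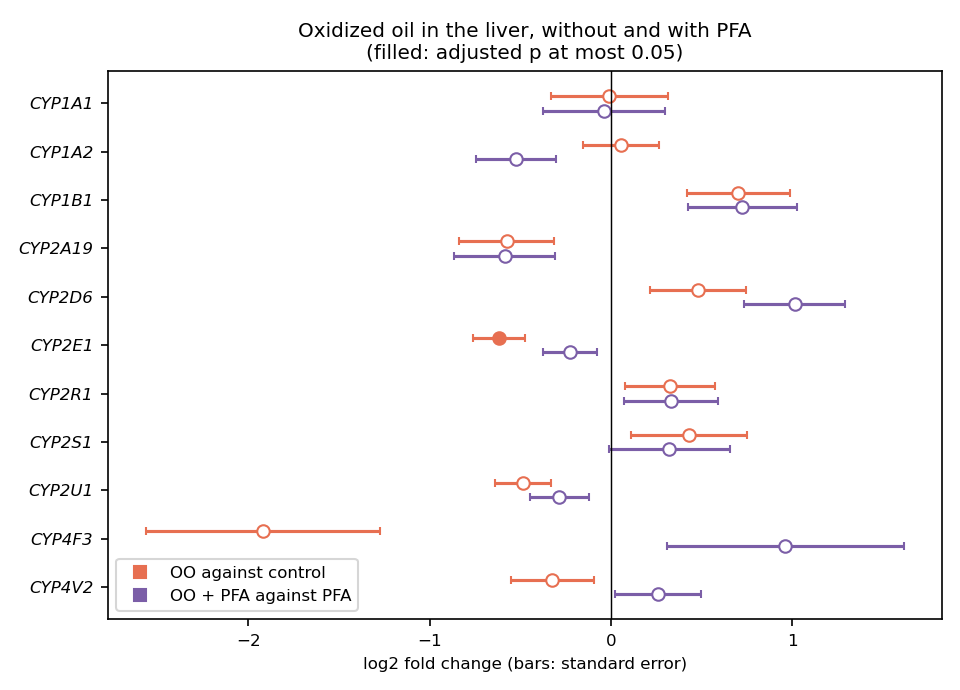
Log2 fold changes of the 11 tested P450 genes in the liver for OO against control and OO + PFA against PFA, with SE bars, filled where the edgeR adjusted p was at most 0.05. CYP2E1 in OO against control (-0.62) is the 1 filled point, and CYP4F3 carries the longest bars (SE 0.65 and 0.66).

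CYP1A1 and CYP1A2, the 1 pair of the same subfamily that could be tested, showed no correlation past the threshold between livers once diet means were removed. Over 23 livers Pearson's r was 0.22 (permutation p = 0.327, adjusted over 2 pairs 0.360) and Spearman's rho 0.36 (permutation p = 0.115, adjusted 0.229), two-sided. Without the 2 livers farthest from the median of CYP1A1, control pig 110 and OO pig 99, r was -0.0014. CYP1A2 and CYP2E1, both enzymes of the pericentral zone, gave r = -0.23 (permutation p = 0.360, adjusted 0.360) and rho = -0.09 (permutation p = 0.692, adjusted 0.692), and r = -0.0023 without OO pig 130 and PFA pig 67.

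The additive called no member in the liver. For PFA against control, edgeR called 0 of 11 members and 0% of all genes, with 2 members at an unadjusted p under 0.05 (CYP2E1, log2 -0.35, and CYP4F3, log2 -1.92, the latter against the 6 control livers described above). DESeq2 also called 0 members, beside 43 of all 13831 genes. For OO + PFA against OO, edgeR called 0 of 11 members and 0% of all genes, with 0 members at an unadjusted p under 0.05. DESeq2 called 0 members there, beside 31 of all genes. The interaction gave 0 of 11 members and 0% of all genes with edgeR, 1 member (CYP4F3) at an unadjusted p under 0.05, and 0 members with DESeq2, beside 150 of all genes. For OO + PFA against PFA, edgeR called 0 of 11 members, beside 1.58% of all genes, with 4 members at an unadjusted p under 0.05 (CYP2D6, CYP1B1, CYP1A2 and CYP2A19). DESeq2 called 1 member there, CYP2D6, beside 697 of all genes.

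Of 21 factors that control P450 genes, all tested in the liver, 3 were lower in OO against control and 0 higher, beside 1.34% of all genes lower. NR1I3, encoding CAR, had 70.8, 81.0 and 99.95 CPM in the control livers and 41.7, 58.3 and 69.1 CPM in the OO livers (lowest, median, highest), without overlap. Its log2 difference was -0.57 (SE 0.14, edgeR adjusted p = 0.0255), and NR1I2, encoding PXR, differed by -0.51 (SE 0.14, edgeR adjusted p = 0.0473). NR1I2 had 146.2, 161.0 and 241.7 CPM in the control livers and 93.6, 119.9 and 148.9 CPM in the OO livers, which overlapped by a small margin. ARNT, the AhR partner, differed by -0.56 (SE 0.15, edgeR adjusted p = 0.0469), while AHR itself was at -0.07 (SE 0.18, edgeR adjusted p = 0.867). In PFA against control, without the oil, NR1I3 was at -0.32 (SE 0.14, edgeR adjusted p = 0.420). There NR1I2 was at -0.45 (SE 0.14, edgeR adjusted p = 0.303) and ARNT at -0.30 (SE 0.15, edgeR adjusted p = 0.459). Control pigs 80 and 85 were the highest controls for NR1I3 (99.95 and 91.1 CPM), NR1I2 (241.7 and 173.4 CPM) and ARNT (72.7 and 79.25 CPM). Their part in these calls was not tested. In OO + PFA against PFA the 3 were at -0.33 (NR1I3, SE 0.14, edgeR adjusted p = 0.173), -0.23 (NR1I2, SE 0.15, edgeR adjusted p = 0.334) and 0.02 (ARNT, SE 0.16, edgeR adjusted p = 0.938). There, 1 of the 21 was higher and 0 lower, beside 1.58% of all genes called. It was NR0B2, which encodes the corepressor SHP (log2 2.74, SE 0.50, edgeR adjusted p = 0.00424), and which was at 1.66 in OO against control (SE 0.47, edgeR adjusted p = 0.0549). NR0B2 had 1.26, 4.25 and 8.54 CPM in the PFA livers and 9.06 to 57.98 CPM in the OO + PFA livers, without overlap. The median log2 change of the 21 was -0.12 and 0.18 in the 2 comparisons, beside 0.06 and 0.00 over all genes. Averaged over the additive, NR1I3 (log2 -0.45, SE 0.10, edgeR adjusted p = 0.00737) and NR1I2 (log2 -0.37, SE 0.10, edgeR adjusted p = 0.0224) were called lower. NR0B2 was called higher (log2 2.20, SE 0.34, edgeR adjusted p = 2.61e-04) and ARNT was not called (log2 -0.27, SE 0.11, edgeR adjusted p = 0.113), beside 11.8% of all genes called.

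**Figure D3:**
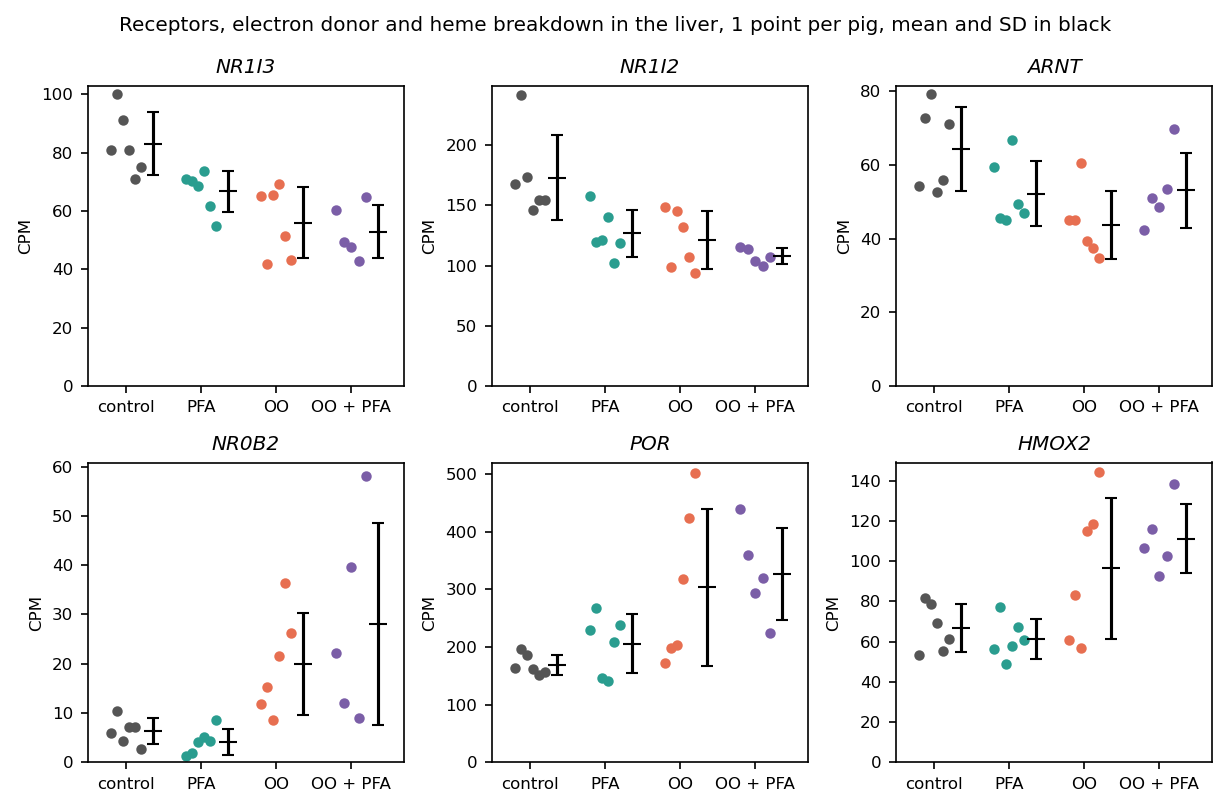
CPM of NR1I3 (CAR), NR1I2 (PXR), ARNT, NR0B2 (SHP), POR and HMOX2 in the liver by diet, 1 point per pig (n = 6, 6, 6 and 5), with the mean and SD in black. The OO livers of NR1I3 (at most 69.1 CPM) lie below the control livers (at least 70.8 CPM), and POR spreads from 173 to 502 CPM with OO against 152 to 196 CPM in control livers.

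Of 18 genes for electron supply and heme, all tested, 2 differed across the diets, POR (edgeR adjusted p = 0.0430) and HMOX2 (edgeR adjusted p = 0.0241), beside 3.66% of all genes. POR, the electron donor of the microsomal P450 enzymes, had 151.7, 162.2 and 196.1 CPM in the control livers and 173.2, 260.8 and 502.2 CPM in the OO livers (log2 0.84, SE 0.23, edgeR adjusted p = 0.0502). Its average oil effect was 0.76 (log2, SE 0.17, edgeR adjusted p = 0.00735). HMOX2, a heme oxygenase, was higher in OO + PFA against PFA (log2 0.86, SE 0.20, edgeR adjusted p = 0.0282) and at 0.53 in OO against control (SE 0.19, edgeR adjusted p = 0.115). POR was at 0.67 in OO + PFA against PFA (SE 0.24, edgeR adjusted p = 0.122), and ALAS1, which starts heme synthesis, was at 0.73 there (SE 0.30, edgeR adjusted p = 0.154). Of 9 tested targets of CAR and PXR outside the P450 genes, 1 was lower and 0 higher in each oil comparison, beside 2.71% and 1.58% of all genes called. It was the lipogenic gene THRSP (log2 -0.97, SE 0.22, edgeR adjusted p = 0.0188, and -1.20, SE 0.24, edgeR adjusted p = 0.00814). The list of CAR and PXR targets also holds POR and ALAS1, which lay above 0 in both oil comparisons. ALAS1 was at 0.29 in OO against control (SE 0.28, edgeR adjusted p = 0.591). Averaged over the additive, POR was called higher, as given above, and THRSP lower (log2 -1.09, SE 0.16, edgeR adjusted p = 1.6e-04). Of the 5 tested AhR targets outside the P450 genes, edgeR called 0 in OO against control, with 0 at an unadjusted p under 0.05, and 0 in OO + PFA against PFA, with 1 at an unadjusted p under 0.05 (smallest edgeR adjusted p 0.488 and 0.102). The lists were not tested with DESeq2.

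Among 10 tested P450 genes of other families, 1 differed across the diets, beside 3.66% of all genes. It was the retinoic acid hydroxylase CYP26A1 (edgeR adjusted p = 0.0457), with log2 differences of -1.01 (SE 0.31) and -1.11 (SE 0.33) in the 2 oil comparisons. Of 14 tested eicosanoid enzymes, 1 differed across the diets, beside the same 3.66%, the prostaglandin E synthase PTGES2 (edgeR adjusted p = 0.0482), at 0.69 (SE 0.21) and 0.66 (SE 0.21). Of 9 tested pericentral genes edgeR called 0 in either oil comparison, with 1 and 5 at an unadjusted p under 0.05, beside 2956 and 3248 of all 13831 genes. The averaged oil effect called 1 of the 9, LGR5, lower (log2 -0.82, SE 0.24, edgeR adjusted p = 0.0301), beside 2.83% of all genes called lower. Of 11 periportal genes 2 were higher in OO + PFA against PFA, beside 1.58% of all genes called, ARG1 (log2 1.47, SE 0.22, edgeR adjusted p = 5.05e-04) and PCK1 (log2 2.47, SE 0.39, edgeR adjusted p = 0.00122). In OO against control edgeR called 0 of the 11, with 4 at an unadjusted p under 0.05, ARG1 was at 0.19 (SE 0.21, edgeR adjusted p = 0.636) and PCK1 at -0.60 (SE 0.37, edgeR adjusted p = 0.349). The averaged oil effect called the periportal gene CDH1 lower (log2 -0.50, SE 0.14, edgeR adjusted p = 0.0240). It called ARG1 (log2 0.83, SE 0.15, edgeR adjusted p = 0.00143) and PCK1 (log2 0.93, SE 0.26, edgeR adjusted p = 0.0269) higher, beside 11.8% of all genes called.

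The 2 tissues differed far more than the diets. In the 10 pigs with both tissues, 12 of the 15 members passed the filter and all 12 were called, 5 higher and 7 lower in the ileum, beside 78.1% of 14982 genes called, 40.6% higher and 37.5% lower. Of the 12, CYP1A1, CYP1A2, CYP2A19 and CYP2E1 passed the filter only through the liver and CYP2W1 only through the ileum, so that these 5 had to differ, and the other 7 passed in both tissues. CYP2E1 and CYP1A2 had 0 counts in each of the 10 ileum libraries, while the livers of the same pigs had 4970 ± 964 and 357 ± 65.8 CPM (SD, n = 10, scaled over both tissues). Against a floor of 3 counts in a library they were at least 44200-fold and at least 3173-fold lower in the ileum. CYP2A19 fell from 2736 ± 909 to 0.266 ± 0.129 CPM (3 to 16 counts), and CYP1A1 from 236 ± 89.1 to 0.206 ± 0.191 CPM (1 to 25 counts). CYP2D6 was 152-fold lower (log2 -7.25, SE 0.41, edgeR adjusted p = 9.12e-13), CYP2U1 9.15-fold lower (log2 -3.19, SE 0.09, edgeR adjusted p = 1.50e-17) and CYP4V2 6.55-fold lower (log2 -2.71, SE 0.15, edgeR adjusted p = 9.88e-13).

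CYP2W1, an enzyme known from fetal gut and colon tumors, had 0 counts in the 10 livers and 3.29 ± 1.58 CPM in the ileum (35 to 217 counts), at least 14.7-fold higher against 3 counts. Over all 24 livers it had 1 count, in 1 OO + PFA pig. CYP2S1 was 3.95-fold higher in the ileum (12.6 ± 3.03 against 3.18 ± 0.795 CPM, edgeR adjusted p = 9.72e-10), although its neighbour CYP2A19 on chromosome 6 was a liver gene. CYP1B1 was 3.38-fold higher (7.06 ± 1.82 against 2.08 ± 0.687 CPM, edgeR adjusted p = 1.10e-07) and CYP2R1 2.04-fold higher (11.7 ± 1.89 against 5.77 ± 1.999 CPM, edgeR adjusted p = 1.07e-05). CYP4F3 was 2.16-fold higher (67.8 ± 28.5 against 37.3 ± 58.3 CPM, edgeR adjusted p = 0.0221), a call lost without pig 71 (adjusted p = 0.0817) or pig 100 (adjusted p = 0.0554). Its log2 difference of 1.11 (SE 0.42) was 1.95 without pig 80 (SE 0.26, edgeR adjusted p = 1.15e-06) and 0.86 without pig 71. The members CYP2F1, CYP4F22 and CYP4B1 were near 0 in both tissues. CYP2F1 had at most 3 counts in a library, CYP4F22 at most 9 and CYP4B1 at most 17. CYP4B1 had 0 counts in the 5 OO + PFA livers of the fits, and 1 to 13 in the control livers.

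**Figure D4:**
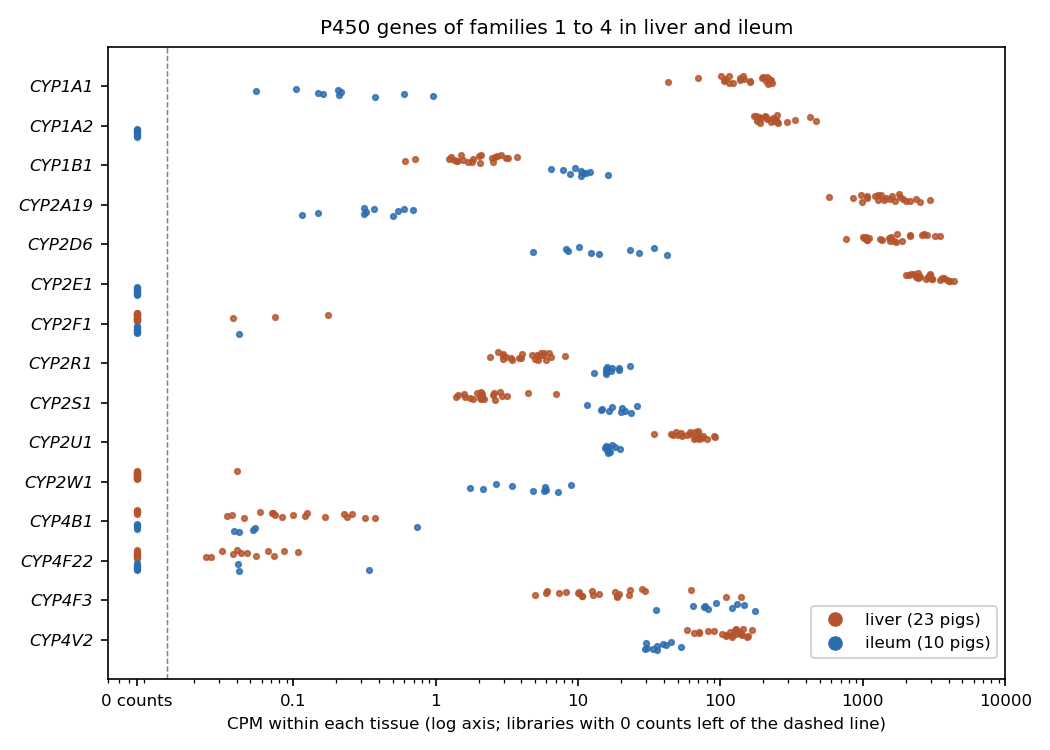
CPM of the 15 P450 genes in 23 livers and 10 ileum samples on a log axis, 1 point per library, scaled within each tissue, with libraries at 0 counts drawn left of the dashed line. CYP2E1 and CYP1A2 are at 0 in every ileum sample, and CYP2W1 is at 0 in 22 of 23 livers.

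Within the ileum 8 members passed the filter, and per kilobase CYP2R1 (7.90 ± 1.30 CPM per kb) and CYP2S1 (6.00 ± 1.44) led those with a length, followed by CYP2U1 (3.65 ± 0.292), CYP4V2 (3.08 ± 0.608) and CYP1B1 (1.62 ± 0.406, SD, n = 10). The ranges of CYP2R1 and CYP2S1 overlapped, as did those of CYP2U1 and CYP4V2. CYP4F3, with no length, had 35.3 to 175.4 CPM. For PFA against control in the ileum, edgeR called 0 of 8 members and 0% of 14300 genes, with 0 members at an unadjusted p under 0.05. DESeq2 called 0 members there, beside 4 of all genes. The largest log2 difference was that of CYP1B1 at -0.31 (SE 0.21, edgeR adjusted p = 0.991), with 10.5, 16.1, 8.83, 10.8 and 11.4 CPM in the control pigs and 12.05, 10.5, 7.90, 6.51 and 9.47 CPM in the PFA pigs. CYP2D6 ranged widely in both groups, at 42.3, 13.9, 12.4, 26.7 and 4.83 CPM in the control pigs and 8.46, 23.2, 8.23, 34.3 and 10.2 CPM in the PFA pigs (log2 -0.24, SE 0.56). The difference of the PFA effect between ileum and liver was called by edgeR for 0% of all genes and for 0 of the 7 members that passed the filter in both tissues, with 1 at an unadjusted p under 0.05 (CYP4F3, log2 1.81, SE 0.85), and by DESeq2 for 0 members. The 5 members at or near 0 counts in a tissue give no usable value for it.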

How the data were processed

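Liver RNA of 24 piglets (4 diets) and ileum RNA of 10 of the same animals (2 diets) was sequenced as poly(A) libraries. According to the submitters' processing notes, STAR 2.6.1d, HTSeq and DESeq2 1.22.2 were used with the pig build Sscrofa11.1, and the strand setting and the annotation release are not given in the sources used here. The authors deposited whole-number counts of read pairs per gene, with the pairs that fell on no gene, on several genes or aligned to several places in rows of their own, which were kept out of library sizes and tests. The tables per sample were used as deposited, and the 2 tables of the whole series were not used here.

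Counts were fitted with edgeR 4.0.16 (TMM, filterByExpr, quasi-likelihood F-test, R 4.3.3) on the 23 livers, the 10 ileum libraries, and the 20 libraries of the 10 pigs with both tissues, and p-values were adjusted over all genes tested (Benjamini-Hochberg, called at 0.05 or below). Errors of log2 fold changes are SEs. Levels are CPM, divided by the RefSeq exon length where compared between genes with a known length. Groups and pig numbers came from the labels. DESeq2 1.42.0, other filters and scalings, all 24 livers, terms for the form of the library name and for the pairs on no gene, and leaving out each pig were tried as alternatives. The fits were also run on simulated counts. These held no effect of pen or RNA quality, so they cannot speak to those limits. P-values measure the spread between pigs of 1 pen a diet.

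Both tissues of a pig share its number in the labels, so numbers pair the samples by animal. The main fit of both tissues had no term for the pig and treated the 2 libraries of an animal as independent. A fit with the pig as a block was an alternative. The deviations from the group means correlated over 0.1 between tissues in 8 of 10 pigs (-0.181 to 0.456). The P450 genes and the gene lists were chosen with earlier results of these data known. Genes named were those called in a liver diet comparison, filled up to 8 by the F-test p, the 5 highest per kilobase in each tissue, and some of the list genes called in a liver diet comparison, at most 4 a list. Others, such as AHR and ALAS1, were named after their values were seen. The list genes APOA4, EPHX1, HPGD, LTC4S, CEBPA, MARCO and CFTR were also called, most of them in the averaged oil effect alone, and are not described. A correction for GC content was not made, since 79.42% of the genes tested in the liver had one, under the 80% needed. An upstream sequence is not reported here for every gene.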

Additional observations from a re-analysis of the deposited data

Results flagged for a closer look

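In 60 groups of 5 or 6 libraries, 1 per member and diet, the highest or lowest library was compared with the rest of its group, and 4 stood apart, where chance flags about 1 in 20 groups. CYP1A2 had 422.9 CPM in the liver of OO pig 130, and at most 234.8 CPM in the other OO livers. CYP2S1 had 7.05 CPM in the liver of OO pig 99, and at most 2.55 CPM in the others. In the ileum, control pig 110 had 19.7 CPM for CYP2U1 (next 16.6 CPM) and 52.8 CPM for CYP4V2 (next 35.9 CPM).

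The liver of OO + PFA pig 77, which entered no comparison for its RNA quality, lay above every control liver for 4 members when all 24 livers were scaled together. CYP1B1 was at 3.22 CPM (highest control 2.48), CYP2D6 at 3741 CPM (highest control 1875), CYP2S1 at 5.39 CPM (highest control 2.57) and CYP4B1 at 1.05 CPM, 15 counts (highest control 0.373). The part of RNA quality in these values was not tested.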

How the results depend on the processing

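Of 653 log2 changes of members under other settings, 602 kept direction and side of the threshold, 43 lost and 6 gained a call, and 2 turned. Those 2 were CYP4F3 in the averaged oil effect (from -0.48 to 0.15 with a term for pairs on no gene, and 0.43 without control pigs 80 and 85, chosen after seeing the data). The correlation of CYP1A1 with CYP1A2 turned to -0.0014 without its 2 farthest livers. Across all 4 diets 5 members were called with DESeq2 (1776 of 13831 genes, against 506 with edgeR), 2 with all 24 libraries (1113 of 13744 genes), 0 with the no-gene term, 0 without pigs 80 and 85, and 0 to 2 when leaving out 1 pig. Without the filter CYP2E1 lost that call (edgeR adjusted p = 0.0685) and the scarce CYP4B1 gained one. In OO against control 3 members were called with DESeq2 (CYP2E1, CYP2U1 and CYP4F3), 0 with all 24 libraries, the no-gene term, a fold of at least 2 or without pigs 80 and 85, and 0 to 2 when leaving out 1 pig. In OO + PFA against PFA DESeq2, all 24 libraries and the 2 diets alone each called 1, CYP2D6. These settings called 697 of 13831, 1225 of 13744 and 963 of 13387 genes, against 218 of 13831 in the main fit. The averaged oil effect called 2 to 5 when leaving out 1 pig (2 without control pig 100 or OO + PFA pig 79) and 0 at a fold of at least 2, where fewer genes can pass. Between tissues, 7 of 7 tested were called at 10 counts or more in every library, which drops the members near 0, and 11 to 12 when leaving out 1 pig. With the pig as replicate block, 12 of 12 members differed between tissues, as without it, of which 5 had to differ. With OO pig 97 left out, genes called in OO against control were 1325 in place of 375, with DESeq2 1079, and with the no-gene term 67. The cause was not tested for any of these changes.

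Limits. Each diet was 1 pen, depth was ample for hepatic members but left CYP1B1 and CYP2S1 at 19 to 197 counts a liver, and the calls of CYP4B1 rest on at most 17 counts a library. The GC correction was not run.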
